A study of Mus musculus with 66 samples.

Results

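Expression of 9 genes of the myelin sheath and of mature oligodendrocytes was examined in the central nervous system of mice carrying spontaneous mutations of *Rorb*, the gene of the nuclear receptor ROR beta. The genes were a list taken by name: *Mbp*, *Mobp*, *Mag*, *Cnp*, *Mal*, *Cldn11*, *Mog*, *Ermn* and *Opalin*. All 9 were found by symbol among the 45706 Ensembl gene identifiers of the series, and all 9 passed the low-count filter in every comparison. RNA was taken from 30 mice. Brain hemi-sections and spinal cords of 24 mice gave 48 libraries, and cortex, hippocampus and cerebellum of the other 6 mice gave 18 libraries, so that 66 libraries formed 20 groups.

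The controls of the first set were 3 C57BL/6J mice, aged 8.0 weeks, for the *Rorb* h1/h1, h2/h2, h3/h3 and h4/h4 mutants, and 3 DBA/1J mice, aged 7.0 to 8.9 weeks over both sets, for *Rorb* h5/h5. The 3 *Rorb* h1/h1 mice (8.0 weeks) carried, on C57BL/6J, a duplication of the first exon of the *Rorb1* transcript with sequence upstream of it. The 4 *Rorb* h2/h2 mice (7.9 to 9.4 weeks) and the 4 *Rorb* h3/h3 mice (8.0 to 9.6 weeks) came from the albino stock B6(Cg)-Tyr c-2J/J, and their causal lesions are not known. The 4 *Rorb* h4/h4 mice (8.4 to 8.6 weeks) carried a premature stop codon and came from the stock B6.129S7-Il1r1 tm1/mx/J, which carries a targeted allele of Il1r1. The *Rorb* h5/h5 mice (7.0 to 8.7 weeks), 3 in each set, carried a start codon loss in the *Rorb1* transcript on DBA/1J. The h2, h3 and h4 mutants were thus set against plain C57BL/6J mice, so an effect of the *Rorb* allele, of other alleles of the stock and of the cohort cannot be told apart. In each tissue, the h1 to h4 comparisons all rested on the 3 C57BL/6J controls, and a chance deviation of a control enters each of them. Every group held both sexes.

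Myelin is the spiral of membrane that oligodendrocytes wrap around axons in the brain and spinal cord, and its compaction and upkeep need a small set of abundant proteins. White matter makes up more of the spinal cord than of the brain, and myelin transcripts are known to be abundant there. Mature oligodendrocytes switch these genes on together under transcription factors that include SOX10 and MYRF. ROR beta itself is best known from the cerebral cortex, the retina and interneurons of the spinal cord.

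The promoter windows of 6 of the genes are printed because they hold the letters of those factors. Windows run from 250 bases before to 50 bases after the annotated start and are those of RefSeq on GRCm38.p6. Of the 9 genes 8 had a window, *Mag* having 3, and none was at hand for *Mbp*. Capitals mark matches on either strand to ACAAAG or ACAATG, the letters of SOX factors, or to CTGGCAC or CTGGTAC, the core letters of MYRF.
Mag, chr7:30914814-30915113, minus strand: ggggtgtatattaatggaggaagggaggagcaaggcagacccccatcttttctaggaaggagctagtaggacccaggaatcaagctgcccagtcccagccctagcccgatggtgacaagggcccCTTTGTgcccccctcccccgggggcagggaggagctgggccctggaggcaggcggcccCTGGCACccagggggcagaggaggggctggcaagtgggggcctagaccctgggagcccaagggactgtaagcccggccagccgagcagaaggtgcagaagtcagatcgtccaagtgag
Mog, chr17:37023349-37023648, minus strand: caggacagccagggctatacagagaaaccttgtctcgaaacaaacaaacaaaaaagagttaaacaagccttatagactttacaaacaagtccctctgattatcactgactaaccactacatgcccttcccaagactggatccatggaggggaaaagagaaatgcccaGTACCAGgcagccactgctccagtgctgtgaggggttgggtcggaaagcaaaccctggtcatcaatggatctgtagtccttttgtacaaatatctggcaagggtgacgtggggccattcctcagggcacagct
Mobp, chr9:120149492-120149791, plus strand: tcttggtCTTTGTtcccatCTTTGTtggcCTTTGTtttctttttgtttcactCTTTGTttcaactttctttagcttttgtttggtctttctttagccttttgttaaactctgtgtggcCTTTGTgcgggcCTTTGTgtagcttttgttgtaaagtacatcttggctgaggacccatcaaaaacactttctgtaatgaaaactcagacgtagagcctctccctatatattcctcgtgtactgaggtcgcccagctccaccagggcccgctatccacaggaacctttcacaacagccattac
Cnp, chr11:100574689-100574988, plus strand: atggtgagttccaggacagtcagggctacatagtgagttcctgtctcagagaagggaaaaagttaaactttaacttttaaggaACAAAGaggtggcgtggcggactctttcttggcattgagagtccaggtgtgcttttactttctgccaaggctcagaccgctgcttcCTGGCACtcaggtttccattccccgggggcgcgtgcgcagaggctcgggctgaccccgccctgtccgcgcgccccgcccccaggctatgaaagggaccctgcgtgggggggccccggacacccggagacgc
Ermn, chr2:58052815-58053114, minus strand: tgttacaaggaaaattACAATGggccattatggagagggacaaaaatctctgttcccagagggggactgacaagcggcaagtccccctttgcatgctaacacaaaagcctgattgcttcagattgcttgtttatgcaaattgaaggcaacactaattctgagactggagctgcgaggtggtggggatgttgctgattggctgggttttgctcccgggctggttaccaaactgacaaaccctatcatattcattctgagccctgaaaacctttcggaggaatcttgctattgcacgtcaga
Opalin, chr19:41077064-41077363, minus strand: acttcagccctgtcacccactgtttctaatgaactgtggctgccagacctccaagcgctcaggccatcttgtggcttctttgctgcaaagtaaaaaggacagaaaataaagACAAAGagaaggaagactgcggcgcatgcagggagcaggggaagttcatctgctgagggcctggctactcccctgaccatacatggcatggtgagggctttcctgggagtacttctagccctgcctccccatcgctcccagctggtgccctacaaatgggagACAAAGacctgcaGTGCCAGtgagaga
SOX letters stood in the windows of *Mag*, *Mobp*, *Cnp*, *Ermn* and *Opalin*, 5 of 8 genes, against 28.6% of all 32851 promoter windows. *Mobp* held 6 of them, all upstream of the start, and *Opalin* held 2. MYRF letters stood in the windows of *Mag*, *Mog*, *Cnp* and *Opalin*, 4 of 8 genes, against 7.1% of all windows. The letters AGGTCA, to which ROR receptors bind, stood in the windows of 0 of 8 genes, against 16.3% of all windows. Members are counted as genes, *Mag* once for its 3 windows, whereas the shares are of single windows. A match is a string of letters and no measured site, and 0 matches says only that these letters are not in these windows. *Opalin* lies at chr19:41061959-41077113, on the same chromosome as *Rorb* (chr19:18930609-19111196) and 22.0 Mb away from it. The other members shown lie on other chromosomes: *Mag* (chr7:30899175-30914922), *Mog* (chr17:37010740-37023398), *Mobp* (chr9:120149742-120181488), *Cnp* (chr11:100574909-100591875), *Cldn11* (chr3:31149920-31164326), and *Mal* (chr2:127633226-127656695) with *Ermn* (chr2:58045115-58052864) on chromosome 2.

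The depth was 32889755 to 59120536 counts per library. The members together took 0.389% to 0.593% of the counts in brain and 1.38% to 1.86% in spinal cord, so that even *Opalin*, the lowest, rested on at least 296 expected counts in each of the 66 libraries. An identifier without a gene symbol took up to 12.5% of the counts of a library, and these counts enter the denominator of TPM, a level per transcript length that sums to the same total in every library. Levels of different genes are compared below in TPM, and groups within a tissue in counts scaled to library size by TMM factors (normalised CPM). *Rorb* was measured first as a check of the labels: it was 7.92 to 8.43 TPM in spinal cord of C57BL/6J and 1.80 to 2.38 TPM in *Rorb* h4/h4, and edgeR called it lower in the h2 and h4 mutants in both tissues and in the h1 mutant in spinal cord, but not in the h3 and h5 mutants. In h1 brain it lay below all controls (7.31 to 7.82 against 10.99 to 13.14 TPM) without being called (adjusted p = 0.0838, edgeR). In h5 it lay above all controls in all 5 tissues, for example at 31.9 to 34.2 against 16.3 to 23.0 TPM in cortex and 15.4 to 18.2 against 10.6 to 13.8 TPM in brain, with 0 of 5 differences called by edgeR (highest adjusted p 0.392, lowest 0.0806), so its level is no check of the h5 labels by a loss. The study, which used DESeq2, reported *Rorb* as differentially expressed in all 5 tissues of h5.

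Some libraries stood apart from the rest. Of the 24 brain hemi-sections, DBA/1J replicate 1 held 0.78 TPM in the sum of 3 cerebellum markers (*Pcp2*, *Gabra6* and *Cbln3*), where the other 23 held 188 to 461 TPM, while its cortex and hippocampus markers lay within the range of the others. Calls between groups that use it are given with and without it, as are the values of members that move. Of the 24 spinal cords, *Rorb* h5/h5 replicate 3 held 117 TPM in the sum of 6 markers of Schwann cells, the myelinating cells of peripheral nerve, where the other 23 held 18.9 to 27.7 TPM. Schwann cells also make *Mbp*, *Mag* and *Mal*, and the value without this library is given beside the result it touches. In the second set, 1 *Rorb* h5/h5 animal was labelled female although a Y-linked gene was expressed, and leaving it out changed no call of a member.

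The order of the levels was nearly the same everywhere. *Mbp*, which glues the cytoplasmic faces of the membrane together, was the most abundant of the 9 genes in every group, and *Opalin*, a small membrane protein of late oligodendrocytes, was the least abundant in every group. In brain *Mbp* was at 2277 to 3646 TPM (median 2962, 24 libraries), and *Mobp*, a second basic protein of compact myelin, at 691 to 1084 TPM (median 894). The next pair could not be separated: *Mag*, an adhesion molecule on the inner face next to the axon, at 210 to 339 TPM, and *Cnp*, an enzyme of the uncompacted cytoplasmic channels, at 223 to 321 TPM.

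*Mal*, a proteolipid that sorts membrane to myelin, was at 150 to 242 TPM in brain and *Cldn11*, the claudin that seals the layers by tight junctions, at 122 to 197 TPM, again with overlapping ranges. *Mog*, a glycoprotein of the outermost surface, was at 42.4 to 102 TPM. *Ermn*, which links to the actin cytoskeleton in late oligodendrocytes, was at 38.6 to 66.6 TPM and *Opalin* at 17.8 to 33.3 TPM. The ranges of *Mog* and *Ermn* overlapped, while those of *Ermn* and *Opalin* did not.

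**Figure D1:**
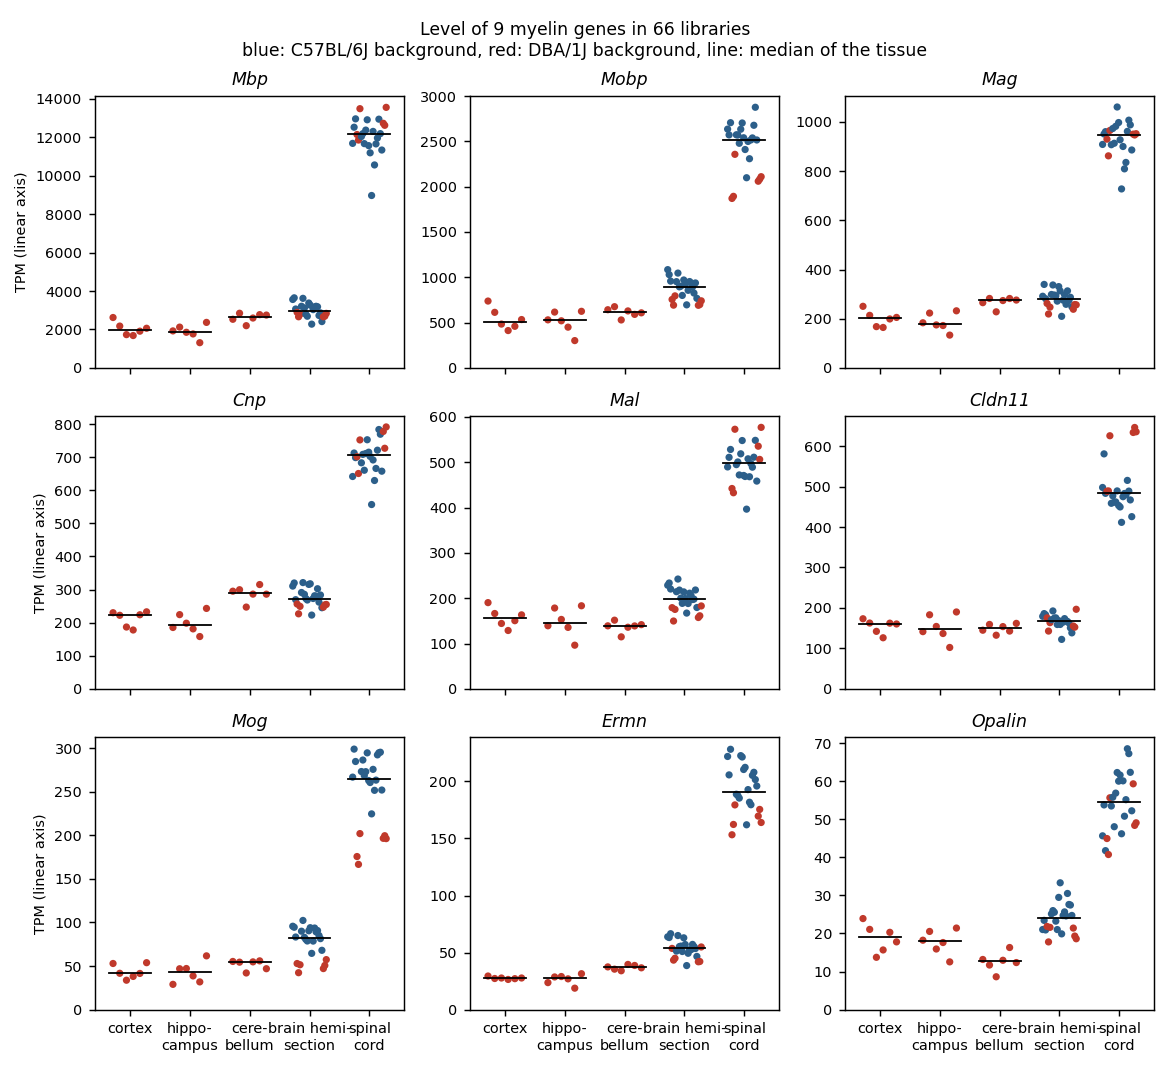
TPM of the 9 genes in every library, on linear axes, by tissue, with 1 point per library, the median as a line, and the background in colour (blue C57BL/6J, red DBA/1J). Spinal cord lies above the brain for each gene, and *Mbp* (brain median 2962 TPM, spinal cord median 12159 TPM) and *Opalin* (spinal cord median 54.4 TPM) mark the top and the bottom.

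The spinal cord held more of every member than the brain of the same strain. In C57BL/6J, *Mbp* was at 11676, 12517 and 12952 TPM in the 3 spinal cords, and *Opalin*, at the other end, was at 45.6, 53.8 and 41.8 TPM against 21, 23.4 and 20.9 TPM in the brains of the same animals. No spinal cord value of a member overlapped a brain value in either strain, which in TPM holds for 26.3% of all genes in C57BL/6J and 29.0% in DBA/1J in this direction. By edgeR's quasi-likelihood test all 9 members were called higher (adjusted p from 3.48e-11 to 1.54e-07 in C57BL/6J and from 1.94e-09 to 1.27e-05 in DBA/1J), beside 28.3% of 17647 genes tested in C57BL/6J (56.9% in either direction) and 25.3% of 17276 in DBA/1J (50.8%). The median log2 fold change of the members was 1.54 in C57BL/6J and 1.69 in DBA/1J, where that of all genes was 0.00 in both. The 9 calls were made under every alternative tried, including the animal as a block and without the DBA/1J brain that lacks cerebellum markers. In bulk tissue, fewer cells of a type and less RNA per cell cannot be told apart.

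The step from brain to spinal cord was not the same for all members. Over the 24 animals, the difference in log2 TPM between spinal cord and brain was largest for *Mbp* in 20 animals and for *Ermn* in the other 4. It was smallest for *Opalin* in 20 animals, for *Cnp* in 2 and for *Mal* in 2. The median was 2.04 for *Mbp*, which is 4.13-fold, and the 24 animals ranged from 3.28-fold to 4.83-fold. For *Opalin* the median was 1.17, which is 2.26-fold, with a range from 1.85-fold to 2.96-fold, below the lowest value of *Mbp*.

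*Ermn* (3.70-fold), *Mog* (3.40-fold) and *Mag* (3.38-fold) came next after *Mbp*, and their ranges over animals overlapped widely. *Cldn11* (2.94-fold), *Mobp* (2.83-fold), *Cnp* (2.56-fold) and *Mal* (2.48-fold) followed. Ranges of neighbours in this order overlapped over animals, although within an animal *Mbp* was the largest in 20 of 24 and *Opalin* the smallest in 20 of 24. The differences of all members in an animal come from the same pair of libraries.

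**Figure D2:**
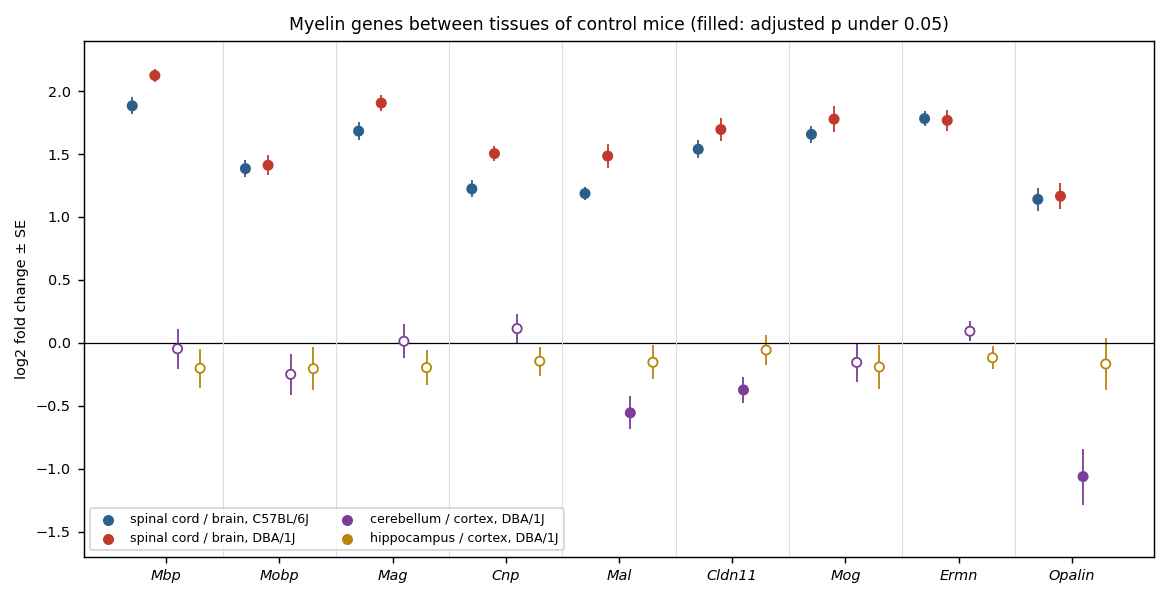
Log2 fold change of each member between tissues of control mice by edgeR (point, with its SE), for spinal cord over brain in C57BL/6J and DBA/1J and for cerebellum and hippocampus over cortex in DBA/1J, filled where adjusted p was under 0.05. All spinal cord points lie above 1, whereas the region points lie near 0 except for *Opalin*, *Mal* and *Cldn11* in cerebellum.

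The other genes of the sheath and its cells were read from lists of their pathway, and most moved in the same direction as the members. Of 14 other genes of myelin membrane and adhesion, 13 were higher in spinal cord than in brain in C57BL/6J and 14 in DBA/1J, with median log2 fold changes of 1.16 and 1.23. They included *Gjb1*, a connexin of glial gap junctions (log2 fold change 1.95 in C57BL/6J), and *Hapln2* of the node of Ranvier (2.01). All 7 genes of myelin lipid synthesis were higher in both strains (medians 1.64 and 1.77), among them *Ugt8a*, which makes galactosylceramide (1.95), and *Fa2h*, which hydroxylates its fatty acid (1.81).

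Of 8 transcription factors of the lineage, 7 were higher and 1 lower in both strains. *Myrf*, which drives myelin genes, was higher (log2 fold change 1.43 in C57BL/6J). The factor that was lower in C57BL/6J, *Tcf7l2*, at -2.20, is also made by neurons of the thalamus. Of 21 other genes of mature oligodendrocytes, 19 were higher and 1 lower in C57BL/6J, and 20 were higher in DBA/1J, with *Klk6*, a secreted protease, at 3.03. Among 8 precursor genes 6 were higher and 2 lower in C57BL/6J, and 4 and 2 in DBA/1J, with a median of 0.42 in C57BL/6J that lay below that of every myelin list.

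Within the brain, the 3 regions of DBA/1J mice were compared next. Between hippocampus and cortex 0 of 9 members were called by edgeR (0 at an unadjusted p under 0.05, 0 by DESeq2), although 20.6% of 17166 genes were called. All 9 estimates were below 0 with a median of -0.17. Cerebellum differed from cortex in 3 members, all lower: *Opalin*, *Mal* and *Cldn11*, where 29.5% of 17329 genes were called lower and 58.1% in either direction. The same 3 members lay below all cortices without overlap, as 31.4% of genes did. The summed level of 5 choroid plexus markers also differed, at 19.9 to 878 TPM in cortex, 1493 to 6214 TPM in hippocampus and 2564 to 3718 TPM in cerebellum, all 5 being called higher in cerebellum than in cortex, and the part of this tissue in the results on regions was not tested.

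*Opalin* was at 22.0, 18.3 and 11.8 normalised CPM in cortex, 15.8, 17.4 and 13.3 in hippocampus and 9.95, 8.74 and 6.78 in cerebellum. All 3 cerebella lay below all cortices and hippocampi. The log2 fold change of cerebellum over cortex was -1.06 ± 0.22 (SE, n = 3 and 3, adjusted p = 0.00255, edgeR), a 2.09-fold lower level. *Mal* (log2 fold change -0.56 ± 0.13, adjusted p = 0.00526) and *Cldn11* (-0.37 ± 0.10, adjusted p = 0.0111) were lower by less in the same edgeR test. Leaving out 1 library at a time gave 2 to 5 called members. *Opalin* and *Mal* were called each time and *Cldn11* in 5 of 6 fits, with a highest adjusted p of 0.0540, and without cortex replicate 3 *Mobp* (-0.42, adjusted p = 0.0146) and *Mog* (-0.32, adjusted p = 0.0430) were called too. *Opalin* thus had the largest difference of the 9 members between these regions, while *Mbp* (-0.05), *Mag* (0.01), *Cnp* (0.11), *Ermn* (0.09), *Mog* (-0.16) and *Mobp* (-0.25) were not called with all libraries.

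Set against cerebellum, the hippocampus had 3 members higher and 3 lower by edgeR, where 31.8% and 32.2% of 17332 genes were called in these directions, 64.0% in all. Without overlap 3 members lay higher and 2 lower, *Cnp* and *Ermn*, as 34.0% and 35.1% of genes did. *Opalin* (log2 fold change 0.87, adjusted p = 0.000318), *Mal* (0.38) and *Cldn11* (0.29) were higher in hippocampus. *Cnp* (-0.28, adjusted p = 0.00782), *Ermn* (-0.23, adjusted p = 0.0153) and *Mag* (-0.23, adjusted p = 0.0288) were lower there. *Mbp* was called lower too with the animal as a block (-0.18, adjusted p = 0.0386), by DESeq2 (-0.17, adjusted p = 0.0411, where it called 42.9% of 25171 genes) and without cerebellum replicate 3 (-0.26, adjusted p = 0.0168). Calls of *Cnp*, *Ermn* and *Mag* were lost when single libraries were left out: *Cnp* was called in 5 of 6 fits, *Ermn* in 4 and *Mag* in 2, so that 3 to 7 members were called. Of 8 lineage transcription factors 5 were lower in cerebellum than in cortex, with *Sox8* at -1.12, *Olig1* at -0.83 and *Zfp488* at -1.43, while in the list of mature genes 9 of 21 were higher and 2 lower.

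Between the strains, *Mog* had the largest difference of the 9 members. It was lower in DBA/1J than in C57BL/6J mice in both tissues. In brain *Mog* was at 78.1, 69.2 and 65.0 normalised CPM in C57BL/6J and at 38.7, 29.2 and 37.5 in DBA/1J. In spinal cord it was at 215, 239 and 219 in C57BL/6J and at 116, 116 and 130.5 in DBA/1J. The groups did not overlap in either tissue, as those of 15.8% of genes in brain and 19.5% in spinal cord did not in this direction, and each DBA/1J value lay well below the lowest C57BL/6J value.

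The log2 fold change of *Mog* was -1.01 ± 0.11 in brain (SE, n = 3 and 3, adjusted p = 0.000292, edgeR), a 2.01-fold lower level, and -0.89 ± 0.05 in spinal cord (adjusted p = 6.95e-08, edgeR), 1.86-fold lower. Without the DBA/1J brain that lacked cerebellum markers it was -1.09 (adjusted p = 0.000183, edgeR), and over all fits that left out 1 brain it ranged from -1.09 to -0.89. The *Rorb* h5/h5 mice, which are other animals on the DBA/1J background, had *Mog* at 33.5, 33.1 and 36.4 normalised CPM in brain and 134, 129.9 and 136 in spinal cord. They lay in or close to the range of DBA/1J. Every mutant on the C57BL/6J side lay higher, from 50.8 to 78.9 in brain and from 179.5 to 238 in spinal cord.

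**Figure D3:**
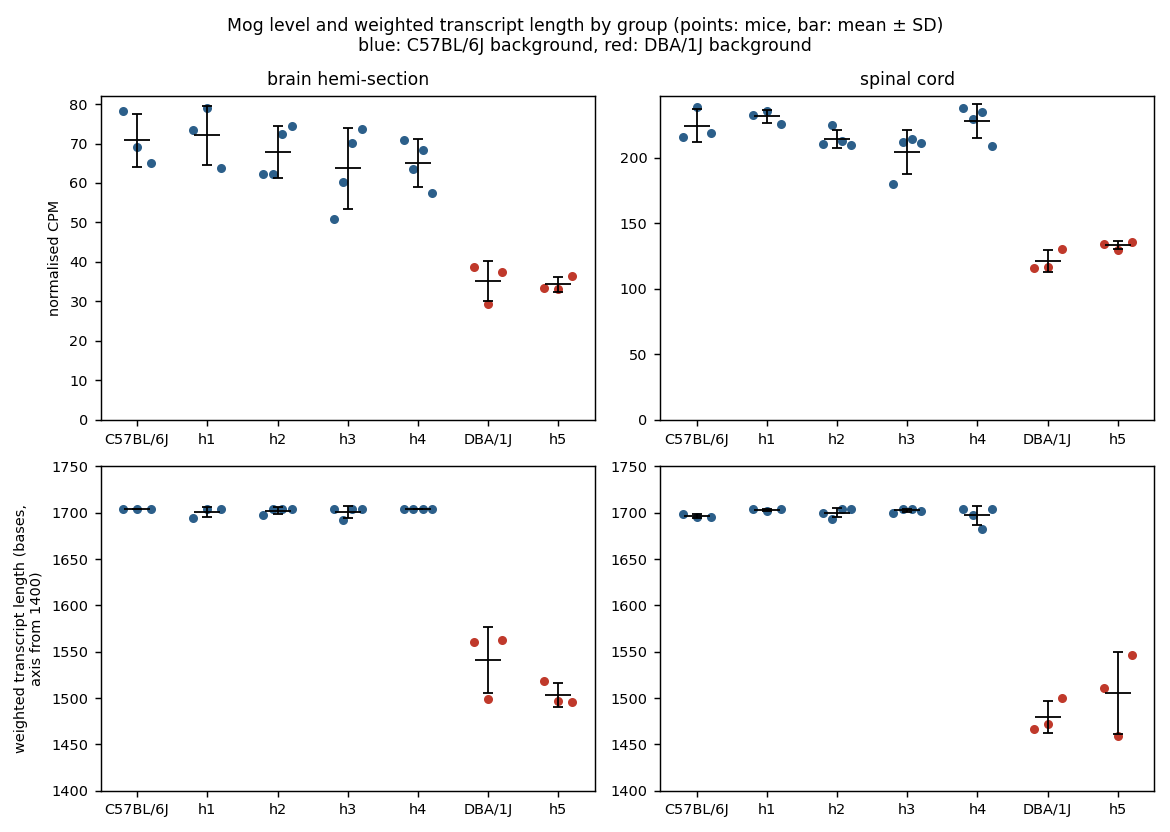
*Mog* in normalised CPM (above, axis from 0) and its weighted transcript length in bases (below, axis not from 0) by group in brain hemi-section and spinal cord (points: mice, bar: mean ± SD), with the C57BL/6J background in blue and the DBA/1J background in red. The 6 DBA/1J-background mice lie below the lowest of the 18 C57BL/6J-background mice in each tissue for both readouts.

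Other members differed less by strain. In brain 4 of 9 members were called lower in DBA/1J by edgeR, where 7.20% of 17368 genes were called lower and 11.2% in either direction, and in spinal cord 3 of 9, where 12.7% of 17318 genes were called lower and 21.3% in either direction. *Mobp* was lower in brain (log2 fold change -0.41, adjusted p = 0.0121) and in spinal cord (-0.39, adjusted p = 0.000478), and so was *Ermn* (-0.39, adjusted p = 0.0138, and -0.41, adjusted p = 0.000110). *Ermn* was at 121, 109 and 121 normalised CPM in C57BL/6J brain and at 101, 81.2 and 84.8 in DBA/1J brain. The groups of *Mbp*, *Mobp*, *Cnp* and *Mal* did not overlap in brain either, nor did those of *Mobp* in spinal cord. In spinal cord *Ermn* was at 381 to 420 normalised CPM in C57BL/6J and 281 to 316 in DBA/1J, without overlap. *Mal* was lower in brain (-0.38, adjusted p = 0.0115), whereas in spinal cord its estimate was -0.09 (adjusted p = 0.407).

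The spinal cord calls of *Mog*, *Mobp* and *Ermn* held in 6 of 6 fits that left out 1 library, and without DBA/1J replicate 3 *Mal* was called there too (-0.19, adjusted p = 0.00522, edgeR). The brain calls were less firm: those of *Mog* and *Mal* held in 6 of 6 fits, that of *Mobp* in 5 and that of *Ermn* in 2. Without DBA/1J brain replicate 2 the values were -0.35 for *Mobp* (adjusted p = 0.0546) and -0.33 for *Ermn* (adjusted p = 0.0528). *Ermn* was also lost without C57BL/6J replicate 1 (adjusted p = 0.0526) or replicate 3 (0.0540) and without DBA/1J replicate 3 (0.0534). Without DBA/1J replicate 1, the brain that lacks cerebellum markers, the same 4 members were called.

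*Opalin* (-0.03 and -0.02), *Cldn11* (-0.13 and 0.02), *Mag* (-0.18 and 0.04), *Mbp* (-0.23 and 0.00) and *Cnp* (-0.25 and 0.02) were not called in brain or spinal cord by edgeR on all libraries. In brain DESeq2, which called 8.54% of 25735 genes, called *Mbp* (adjusted p = 0.0188) and *Cnp* (adjusted p = 0.0144), and so did edgeR without C57BL/6J replicate 3 (-0.30, adjusted p = 0.0270, and -0.32, adjusted p = 0.0315). Without DBA/1J brain replicate 1 the uncalled values in brain were -0.27 for *Mbp*, -0.30 for *Cnp*, -0.24 for *Mag*, -0.21 for *Cldn11* and -0.10 for *Opalin*, and the median of the members was -0.30. Over all libraries the median of the members was -0.25 in brain, beside 0.01 for all genes, and -0.02 in spinal cord, beside 0.01. In the same brains 7 astrocyte markers summed to 1265 to 1330 TPM in DBA/1J and 1418 to 1463 TPM in C57BL/6J (1 of 7 called, lower), and the precursor markers to 192 to 208 and 208 to 224 TPM (2 of 8 called, lower), and the part of these cells in the result was not tested. No member was called for a different effect of strain in the 2 tissues by edgeR (0 of 9, 4 at an unadjusted p under 0.05, 0 by DESeq2, where 0.321% of 18374 genes were called). That test gave 0.12 for *Mog* (adjusted p = 0.827), and without DBA/1J replicate 1 it called 0 of 9 as well (5 at an unadjusted p under 0.05). In brain 7 of 14 other membrane genes, 4 of 8 transcription factors and 5 of 21 other mature genes were lower in DBA/1J, with *Gjc3* of glial gap junctions at -0.44, *Olig2* at -0.78 and *Sox10* at -0.74. Without DBA/1J brain replicate 1 these counts were 7, 4 and 6. In spinal cord the same lists had 6, 4 and 8 genes lower and 2, 2 and 4 higher.

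*Mog* also differed by strain in the inferred length of its transcripts. RSEM lists for each gene a length weighted by the abundance of its transcripts, and this length moves when the isoform makeup that RSEM infers moves. In brain the weighted length of *Mog* was 1702 ± 3.80 bases (SD, range 1692 to 1704) in the 18 mice on the C57BL/6J background and 1522 ± 31.6 bases (range 1496 to 1562) in the 6 on the DBA/1J background. In spinal cord it was 1700 ± 5.57 bases (1683 to 1704) and 1492 ± 33.2 bases (1459 to 1546). The 2 backgrounds did not overlap in either tissue.

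By an exact 2-sided permutation test over the 134596 ways to place 6 of 24 animals, p was 7.43e-06 in each tissue, the smallest these permutations can give (adjusted p = 0.000306 in brain and 0.000264 in spinal cord over 10601 genes). This comparison was added after the lengths of *Mog* had been seen, and 8.46% of genes were called in brain and 9.24% in spinal cord. *Mobp* was shorter in DBA/1J by 15.6 and 12.7 bases with the same adjusted p, and *Mag* was longer by 64.8 bases (adjusted p = 0.00314) and 62.3 bases (adjusted p = 0.000264), all by the permutation test. *Mbp*, *Cnp* and *Mal* were not called, and *Cldn11*, *Ermn* and *Opalin* had a constant length. Reads of both strains were aligned to GRCm38, the genome of C57BL/6J, and the part of strain differences in sequence in these results was not tested. TPM divides by this length, whereas the counts tested above were not adjusted for it. A shorter transcript gives fewer fragments per molecule, so *Mog* counts and TPM differ in the size of the strain difference. The mean of *Mog* was 91.2 TPM in C57BL/6J and 49.0 TPM in DBA/1J brain, and 283 and 181 TPM in spinal cord. The part of the length in the count difference was not tested. *Mog* and *Cnp* share their loci with genes on the opposite strand, *Zfp57* (5.86 to 21.0 TPM) and *Dnajc7* (137 to 219 TPM), and whether counting used the strand is not given in the sources used here.

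Spinal cord and brain of the same animal differed in weighted length for 2 members. *Cnp* was longer in spinal cord by 19.0 bases, in 22 of 24 animals (adjusted p = 0.000908, sign-flip permutation test with 100000 resamples, 2-sided), and *Mobp* was shorter by 3.63 bases, in 20 of 24 animals (adjusted p = 0.00253), where 22.0% of 10601 genes were called. Among the 18 animals on the C57BL/6J background the same permutation test gave 13.9 bases for *Cnp* (adjusted p = 0.00950) and -4.34 bases for *Mobp* (adjusted p = 0.000919). The 6 animals on DBA/1J gave 34.2 bases (adjusted p = 0.276) and -1.50 bases (adjusted p = 0.883) by the exact sign-flip permutation test. With only 6 animals this test has too few sign patterns to reach a small p. A call after adjustment over 10601 genes was practically out of reach, so these values do not show that a difference is absent.

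The *Rorb* mutants were then compared with their controls, the question the series was made for. The members changed little: of 9 members in each of 13 comparisons, 0 or 1 passed the edgeR test, and those that passed were *Opalin*, which was higher, and *Ermn*, which was lower. *Opalin* was called higher in *Rorb* h4/h4 brain and spinal cord and in *Rorb* h2/h2 spinal cord. *Ermn* was called lower in *Rorb* h3/h3 spinal cord. By edgeR no other member was called in any of these comparisons, while DESeq2 also called *Cldn11* in *Rorb* h4/h4 brain (adjusted p = 0.0141) and *Rorb* h5/h5 spinal cord, *Mag* in *Rorb* h3/h3 spinal cord (adjusted p = 0.0468), and *Ermn* in brain of *Rorb* h3/h3 and h4/h4 and spinal cord of *Rorb* h1/h1. DESeq2 also called more genes in all: 1.74% of 25973 genes in *Rorb* h4/h4 brain, 0.752% of 26054 in *Rorb* h3/h3 brain, 0.564% of 25170 in *Rorb* h1/h1 spinal cord, 1.68% of 25522 in *Rorb* h3/h3 spinal cord and 0.363% of 25090 in *Rorb* h5/h5 spinal cord.

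*Opalin* was at 18.8, 18.8 and 17.8 normalised CPM in C57BL/6J brain and at 26.1, 22.5, 25.2 and 22.8 in *Rorb* h4/h4 brain. The lowest mutant lay above the highest control, with a log2 fold change of 0.39 ± 0.07 (SE, n = 3 and 4, adjusted p = 0.0368, edgeR), which is 1.31-fold. In the same comparison 0.236% of 17789 genes were called higher and 0.703% in either direction, and 5.77% of genes had groups that did not overlap in this direction. The call was not firm. It was lost without any of the 3 C57BL/6J libraries (adjusted p = 0.112, 0.107 and 0.0863) and without *Rorb* h4/h4 replicate 1, 2 or 3 (0.0543, 0.0508 and 0.0857), and one fit of all brain groups gave an adjusted p of 0.153 at the same fold change. The summed cerebellum markers, whose tissue has the least *Opalin*, were at 188 to 379 TPM in *Rorb* h4/h4 brains and at 306 to 461 TPM in C57BL/6J brains, and their part in the result was not tested.

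In spinal cord *Opalin* was at 40.4, 47.1 and 35.2 normalised CPM in C57BL/6J. It was at 60.9, 57.4, 55.0 and 47.4 in *Rorb* h4/h4 and at 48.01, 52.2, 53.1 and 54.1 in *Rorb* h2/h2. Both mutant groups lay above all controls, though the lowest value of each came within 1 unit of the highest control. The log2 fold change was 0.43 ± 0.09 in *Rorb* h4/h4 (adjusted p = 0.0260, edgeR), where 0.562% of 17427 genes were called higher and 1.75% in either direction, and 0.34 ± 0.07 in *Rorb* h2/h2 (adjusted p = 0.0169, edgeR), where 0.876% of 17464 genes were and 2.09% in either direction. Groups without overlap in this direction were found for 6.19% and 6.85% of genes. In these spinal cords 10 neuron markers summed to 3215 to 3412 TPM in *Rorb* h4/h4, 3227 to 3390 TPM in *Rorb* h2/h2 and 3459 to 3576 TPM in C57BL/6J. They summed to 3124 to 3263 TPM in *Rorb* h1/h1, where *Opalin* was not called, and the part of neurons in the result was not tested.

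Each of these calls held in 4 of 7 fits that left out 1 library. The call in *Rorb* h4/h4 was lost without C57BL/6J replicate 1 (adjusted p = 0.130) or 3 (0.0812) and without *Rorb* h4/h4 replicate 2 (0.0684). The call in *Rorb* h2/h2 was lost without C57BL/6J replicate 1 (adjusted p = 0.115) and without *Rorb* h2/h2 replicate 2 (0.0570) or 3 (0.0628), and one fit of all spinal cord groups gave 0.108.

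*Opalin* was above its control mean in the remaining C57BL/6J-side mutants too, but without passing the test. In brain *Rorb* h1/h1 was at 22.5, 21.9 and 21.5 normalised CPM, all above the controls, as 4.72% of genes were (log2 fold change 0.26, adjusted p = 0.898, edgeR), and *Rorb* h3/h3 at 17.1 to 22.2 (0.14, adjusted p = 0.615, edgeR). *Rorb* h2/h2 brains were at 19.7 and 18.1 in mice aged 7.9 weeks and at 25.8 and 28.8 in those aged 9.4 weeks. The log2 fold change of that group was 0.32 (adjusted p = 0.622, edgeR), and the part of age was not tested. In spinal cord *Rorb* h1/h1 was at 44.1 to 50.2 (0.23, adjusted p = 0.257, edgeR), and without C57BL/6J replicate 2 it was called (0.35, adjusted p = 0.0335). *Rorb* h3/h3 was at 40.5 to 50.5 (0.19, adjusted p = 0.389). All these comparisons share their 3 controls, so that they do not stand as separate observations. *Rorb* h5/h5, which has its own controls, gave -0.11 in brain and 0.14 in spinal cord, neither called.

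**Figure D4:**
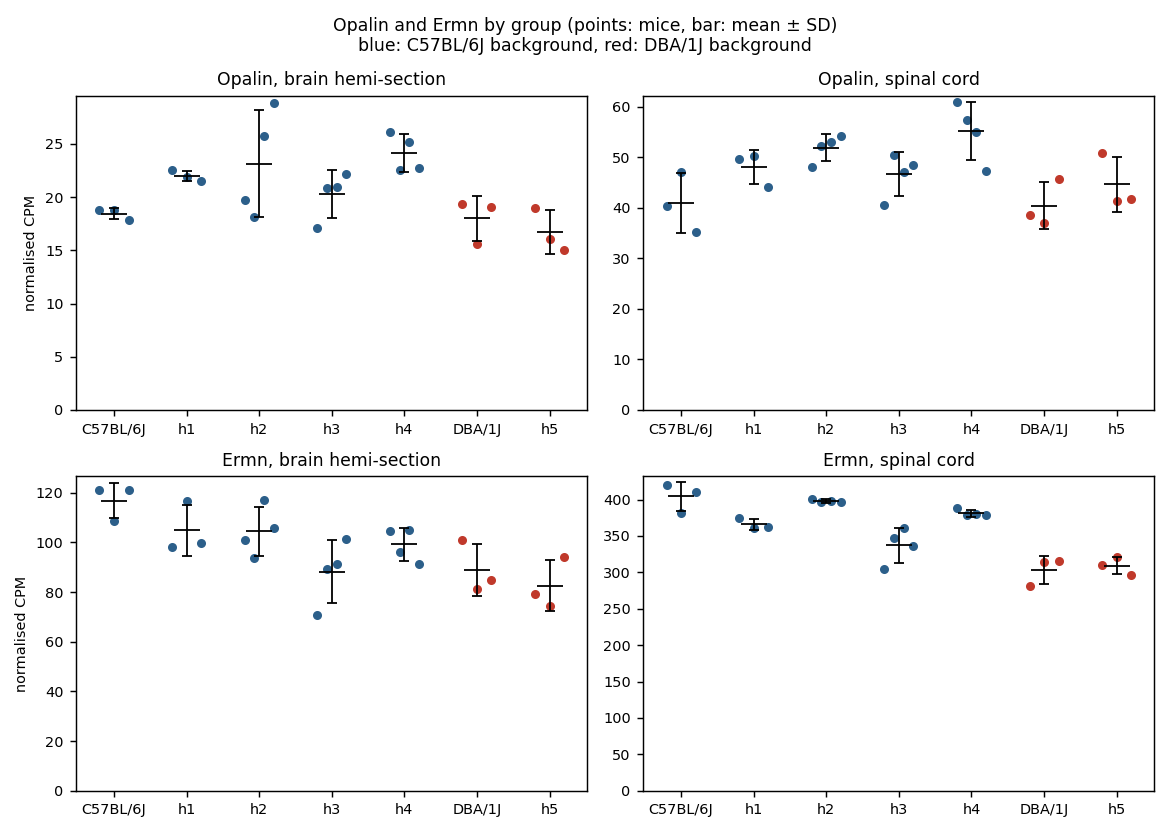
*Opalin* and *Ermn* in normalised CPM by group in brain hemi-section and spinal cord (points: mice, bar: mean ± SD), with the C57BL/6J background in blue and the DBA/1J background in red. The *Rorb* h4/h4 mice lie above the C57BL/6J controls for *Opalin* in both tissues, and the *Rorb* h3/h3 mice lie below them for *Ermn*.

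*Ermn* was at 420, 381 and 411 normalised CPM in C57BL/6J spinal cord and at 304.5, 347, 360 and 336 in *Rorb* h3/h3. All 4 mutants lay below all controls, with a log2 fold change of -0.26 ± 0.06 (adjusted p = 0.0426, edgeR), 1.20-fold lower. In the same comparison 0.674% of 17512 genes were called lower and 1.01% in either direction. The call was lost with sex as a covariate (-0.24, adjusted p = 0.128) and with the replicate number as a block (-0.26, adjusted p = 0.0829), at nearly the same log2 fold change. It held in 2 of 7 fits without 1 library, and was lost without any of the 3 controls (adjusted p = 0.233, 0.0613 and 0.167) and without *Rorb* h3/h3 replicate 2 (0.0828) or 4 (0.0856).

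In brain *Ermn* was at 70.9, 89.5, 91.4 and 101 normalised CPM in *Rorb* h3/h3, again below all 3 controls, as 5.5% of genes were, and was not called (log2 fold change -0.40, adjusted p = 0.168 by edgeR and 0.00436 by DESeq2). The *Rorb* h3/h3 members as a group were low, and in brain this was not particular to h3. Every member but *Opalin* had a lower mean normalised CPM in *Rorb* h4/h4 brain than in the same 3 controls. In *Rorb* h2/h2 brain every member but *Mag* and *Opalin* did. In *Rorb* h3/h3 brain 8 of 9 estimates were below 0, with a median of -0.20, and in spinal cord 8 of 9, with a median of -0.14, beside medians of all genes of 0.00 in both tissues. The 7 astrocyte markers summed to 2026 to 2348 TPM in *Rorb* h3/h3 spinal cord against 2357 to 2478 TPM in the controls, and to 1328 to 1401 against 1418 to 1463 TPM in brain, without overlap and with 0 of 7 called in each tissue, and the part of astrocytes in the result was not tested. Much of the *Rorb* h3/h3 shift lay in 1 animal: replicate 1 was the lowest of its group for all 9 members in brain and in spinal cord, and without it the medians were -0.11 and -0.08. At 9.6 weeks this male was the oldest of its group, beside controls of 8.0 weeks, and the part of age was not tested. In spinal cord 4 members (*Mag*, *Mog*, *Mobp* and *Ermn*) lay below all controls, where 6.91% of genes did. *Car2*, a carbonic anhydrase of oligodendrocytes, was called lower in *Rorb* h3/h3 brain (-0.37) and spinal cord (-0.31).

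*Ermn* also lay below all controls in *Rorb* h4/h4 brain together with *Cldn11*, as 6.45% of genes did, in *Rorb* h1/h1 spinal cord (8.45% of genes) and in *Rorb* h5/h5 cortex (6.24%), and *Mal* did in *Rorb* h2/h2 brain (3.94%) and *Rorb* h3/h3 brain, none of them called by edgeR.

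In *Rorb* h1/h1 brain 0 of 9 members were called (1 at an unadjusted p under 0.05, 0 by DESeq2), where 0.0% of 17603 genes were called by edgeR, 745 at an unadjusted p under 0.05 and 17 by DESeq2. In *Rorb* h2/h2 brain 0 of 9 were called (4 at an unadjusted p under 0.05, 0 by DESeq2), where 0.136% of 17594 genes were, and in *Rorb* h3/h3 brain 0 of 9 (4, and 1 by DESeq2), where 0.164% of 17688 were. In *Rorb* h1/h1 spinal cord 0 of 9 were called (2 at an unadjusted p under 0.05, 1 by DESeq2), where 0.289% of 17309 genes were.

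Each mutant was also tested for a different effect in the 2 tissues. By edgeR 0 of 9 members were called for any of the 5 alleles (0 by DESeq2), where 0.0% of genes were called for 4 alleles and 0.0054% for h4, and at an unadjusted p under 0.05 there were 2 members for h4, 2 for h5 and 0 for the other alleles. A call of *Opalin* or *Ermn* in 1 tissue is therefore not shown to be particular to that tissue.

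In *Rorb* h5/h5, 0 of 9 members were called in any of 5 tissues by edgeR. At an unadjusted p under 0.05 there were 3 in spinal cord, 1 in cortex and 0 in brain, hippocampus and cerebellum, and DESeq2 called 1 in spinal cord and 0 elsewhere. The genome-wide rates by edgeR were 0.0% in brain (1003 genes at an unadjusted p under 0.05, 64 by DESeq2) and 0.00581% in spinal cord. They were 0.0% in cortex (1106 and 59), with 0.0118% for hippocampus and 0.012% in cerebellum. The median log2 fold change of the members was -0.08 in brain and 0.13 in spinal cord. In the dissected regions it was -0.22 (cortex), -0.16 (hippocampus) and 0.09 (cerebellum). Without the DBA/1J brain that lacks cerebellum markers the brain median was -0.00 and the value of *Opalin* -0.05. In hippocampus the median ranged from -0.40 without *Rorb* h5/h5 replicate 3 to 0.01 without *Rorb* h5/h5 replicate 2.

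*Cldn11* came nearest in spinal cord, at 428, 453 and 525 normalised CPM in DBA/1J and 555, 564 and 550.5 in *Rorb* h5/h5. The mutants lay above the controls for *Cldn11* and *Cnp*, where 6.47% of genes did, and the log2 fold change of *Cldn11* was 0.25 ± 0.07 (adjusted p = 0.452, edgeR, and 0.00272 by DESeq2). Without *Rorb* h5/h5 replicate 3, the spinal cord with Schwann cell markers, the value was 0.26 (adjusted p = 0.288, edgeR). The 9 estimates were all above 0 in this tissue, in which the 6 Schwann cell markers summed to 18.9, 27.7 and 117 TPM in the mutants and to 19.4, 20.7 and 21.7 TPM in the controls, and the part of Schwann cells in these values was not tested.

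**Figure D5:**
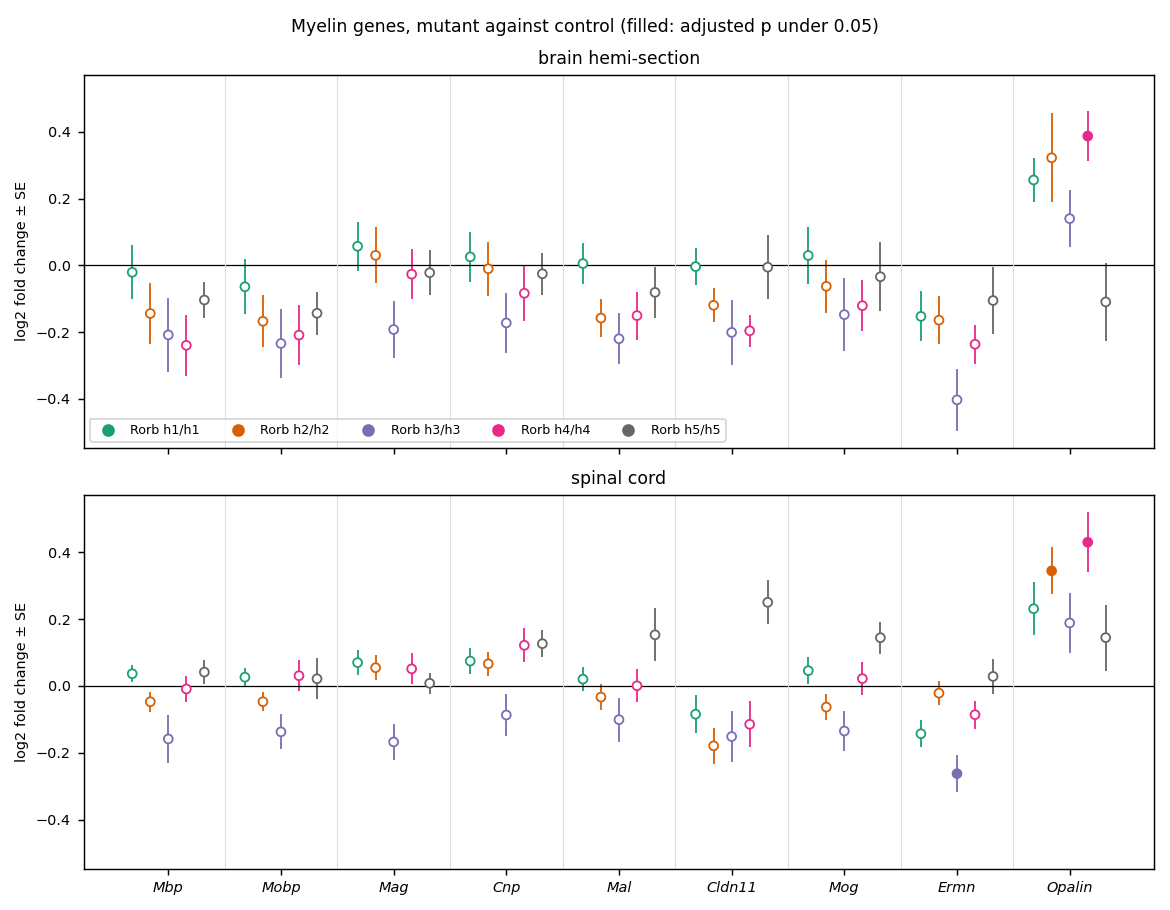
Log2 fold change of each member in each mutant against its control by edgeR (point, with its SE), in brain hemi-section above and spinal cord below, filled where adjusted p was under 0.05. Filled points are *Opalin* in *Rorb* h4/h4 (0.39 and 0.43) and *Rorb* h2/h2 (0.34, spinal cord) and *Ermn* in *Rorb* h3/h3 (-0.26, spinal cord), and most of the other points lie within 0.25 of 0.

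Few other genes of the pathway were called in the mutants by edgeR, most of them in spinal cord of *Rorb* h2/h2 and h3/h3. In *Rorb* h2/h2 spinal cord, where 2.09% of all genes were called, 2 of 14 other membrane genes were lower (*Gjc3* at -0.29 and *Hapln2* at -0.19), 2 of 8 transcription factors were higher and 1 lower (*Sox10* at 0.20, *Sox8* at 0.17, *Olig2* at -0.27), and 2 of 21 other mature genes were higher (*Ppp1r14a* at 0.43, *Klk6* at 0.18). In *Rorb* h3/h3 spinal cord, where 1.01% of all genes were called, 1 membrane gene (*Gjc3*, -0.26), 1 of 7 lipid genes (*Gltp*, -0.27), 1 of 8 transcription factors (*Olig2*, -0.44) and 4 of 21 other mature genes were lower, *Cryab* and *Bcas1* among them at -0.46 and -0.27. Elsewhere the calls were *Car2* in *Rorb* h3/h3 brain, *Anln* in *Rorb* h4/h4 brain (-0.38), *Sox10* in *Rorb* h4/h4 spinal cord (0.17) and *Gpr17*, a receptor of committed precursors, in *Rorb* h1/h1 spinal cord (-0.25). None of the genes of these 5 lists was called in *Rorb* h5/h5 by edgeR, which called 1 of 17210 genes in its spinal cord, where DESeq2 called 91. The 7 lipid genes summed to 1020 to 1057 TPM in *Rorb* h5/h5 spinal cord and 845 to 990 TPM in DBA/1J, without overlap. The sums of the other lists overlapped. The study, with DESeq2, reported terms of lipid biosynthesis and axon ensheathment for its *Rorb* h5/h5 spinal cord genes.

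The members varied together from mouse to mouse. In 9 of 20 groups 1 library was the lowest of its group for all 9 members, and in 4 groups 1 library was the highest for all 9. Over the 20 group means, Pearson r between members in log2(TPM + 1) was 0.909 to 0.998 over 36 pairs (median 0.975), and these means include the step between spinal cord and brain. For the deviations of the 66 libraries from their group means it was 0.508 to 0.939 (median 0.816), with the lowest median for *Opalin* (0.703) and the highest for *Mal* (0.868). These are descriptions, and the libraries share depth and dissection.

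Among 15674 other genes with a mean of at least 1 TPM, those most like the mean of the members over the 20 group means were *Gltp*, a glycolipid transfer protein (r = 0.997), *Pllp*, a proteolipid of myelin (0.996), and *Prr18* and *Pde8a* (0.995 each). *Myrf* (0.994) was the sixth. For the deviations from the group means they included *Clic4* (0.905), *Ugt8a* (0.902), *Tmem278* (0.901), *Fa2h* (0.898) and *Cers2* (0.870).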

How the data were processed

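Gene-level tables of 66 libraries were used, 1 per library. Per the labels and the study's methods, the authors trimmed paired reads of poly(A)-selected RNA with Trim Galore, aligned them to GRCm38 (mm10) with STAR and quantified genes with RSEM. The deposited expected counts are RSEM's estimated fragments per gene, not normalised, with 5.07% of values not whole, and the deposited TPM values divide them by effective length. The annotation release and the strand setting are not given in the sources used here. The members and lists were chosen with earlier results of these data known. Members were matched by symbol.

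Expected counts were rounded and tested across all genes with edgeR 4.0.16 in R 4.3.3 (filterByExpr, TMM, quasi-likelihood test, Benjamini-Hochberg adjustment over all genes tested, threshold 0.05), 1 fit per comparison with only its 2 groups. All adjusted p-values are from edgeR unless DESeq2 (1.42.0) or a permutation test is named. The script was tested on simulated data. Weighted length is RSEM's length column, for genes with at least 10 counts in each library. Named genes were the members and, per list, up to 3 with the smallest adjusted p in a comparison. Alternatives were DESeq2, its size factors, no filter, sex, a replicate or animal block, 1 fit per tissue, and leaving out each library. List counts without DBA/1J brain replicate 1 were added after its markers were seen. Brain and spinal cord of an animal share an identifier in 24 of 24 animals, so the block pairs tissues. Between groups a number marks no shared animal, and only in Rorb h1/h1 against C57BL/6J brain did every same-numbered pair correlate above 0.1 (0.113, 0.119 and 0.198). With that block 0 of 9 members were called there too. The mice of a group are separate animals. Some genes of the lists are not reported here by name.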

Additional observations from a re-analysis of the deposited data

Results flagged for a closer look

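In 4 of 54 member and group pairs with 4 mice, 1 mouse lay farther from the others than Dixon's critical value of 0.829 allows, and chance alone gives about 1 in 20. All 4 were the lowest of their group. Rorb h3/h3 replicate 1, the oldest of its group at 9.6 weeks, gave 3 of them: Cnp in brain at 222.77 TPM, Cldn11 in brain at 122.16 TPM and Cldn11 in spinal cord at 411.49 TPM. Rorb h4/h4 replicate 4 had Mog in spinal cord at 251.89 TPM. Both mice were the lowest of their group for all 9 members in brain and in spinal cord. In TPM no member had all mutants above their controls in one tissue and all below them in the other, and none was called for a different effect in the 2 tissues.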

How the results depend on the processing

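DESeq2 called more genes than edgeR in the mutant comparisons (451 against 125 in Rorb h4/h4 brain, 91 against 1 in Rorb h5/h5 spinal cord). No member value changed its direction while called, and the 9 calls between spinal cord and brain stood under every alternative run. DESeq2 called 1 member in Rorb h3/h3 brain (Ermn), 3 in Rorb h4/h4 brain (Opalin, Cldn11 and Ermn), 1 in Rorb h1/h1 spinal cord (Ermn), 2 in Rorb h3/h3 spinal cord (Ermn and Mag) and 1 in Rorb h5/h5 spinal cord (Cldn11). Without a low-count filter the counts were 1 in Rorb h3/h3 brain, 3 in Rorb h4/h4 brain, 2 in Rorb h1/h1 spinal cord and 2 in Rorb h2/h2 spinal cord. In DBA/1J against C57BL/6J brain both settings called 6 members, adding Mbp and Cnp to the 4. A joint fit over every group of the tissue called 0 in Rorb h4/h4 brain, 0 in Rorb h2/h2 spinal cord and 2 in Rorb h3/h3 spinal cord, where the replicate block and the sex covariate each called 0. The replicate numbers did not pair these mice, and the animal block, which does pair tissues, added Mbp between hippocampus and cerebellum, as DESeq2 did, and changed no other call. Leaving out 1 library gave 0 to 1 called members in spinal cord of Rorb h1/h1, h3/h3 and h4/h4 and in brain of Rorb h4/h4, 0 to 2 in Rorb h2/h2 spinal cord, 2 to 5 between the strains in brain and 3 to 4 in spinal cord, 2 to 5 between cerebellum and cortex and 3 to 7 between hippocampus and cerebellum. Weighted length was called between tissues for 0 members in the 6 mice on the DBA/1J background alone, where so few animals left a call after adjustment practically out of reach. Of the 8 genes most like the members by group means, 2 remained by rank correlation and 1 in brain and spinal cord alone, and by deviations 7 and 6 remained. The cause was not tested in these cases. With 3 or 4 mice a group, the called changes of 1.20-fold to 1.35-fold in mutants were lost in some fits without 1 library.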

Other observations

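The mean deviation of the 9 members from the group mean was compared between brain and spinal cord of the same mouse. Over 24 mice Pearson r was 0.48 (permutation within groups, p = 0.0974) and Spearman rho was 0.28 (permutation p = 0.278). Without the 2 mice farthest from the median in brain r was 0.12 over 22 mice (permutation p = 0.776).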
